A study of Drosophila melanogaster with 8 samples.

Results

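The 8 CpG cytosines of the long terminal repeat (LTR) of Invader 4 are the cytosines followed by guanine in the LTR sequence that the authors deposited with their bisulfite reads. They were chosen from that reference sequence alone, and they are 8 of its 27 cytosines; the other 19 are followed by A, C or T. Each is named here by its position in the sequence, counted from 1 at the first base: C1, C15, C19, C24, C35, C63, C67 and C114. All 8 were read in every library, at 1461 to 2666 C or T calls per cytosine and library.

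CpG is the dinucleotide at which most animal DNA methylation sits, and in vertebrates the CpG cytosines of retrotransposons are usually methylated and the elements silenced. Drosophila melanogaster lacks the DNA methyltransferases that write and copy this mark in vertebrates and keeps Dnmt2, an enzyme whose best known substrate is transfer RNA. In bisulfite sequencing an unmethylated cytosine is converted and read as T, whereas a methylated cytosine stays C. A cytosine that escaped conversion also stays C, and in these reads the 2 cannot be told apart.

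The sequence around each CpG is given because the comparisons turn on which cytosine is read and on its neighbours. The window runs from 4 bases before to 4 bases after the CpG where the reference allows it, 5′ to 3′ on the reference strand, and capitals mark the CpG.
C1: CGgtaa
C15: ctgtCGagcg
C19: cgagCGctgc
C24: gctgCGgcag
C35: ggcaCGaaca
C63: ggtcCGatcg
C67: cgatCGagtg
C114: cacaCGccag
Steps from one CpG to the next were 14, 4, 5, 11, 28, 4 and 47 bases. C15, C19 and C24 form one close group, C63 and C67 another, and C114 stands alone near the far end. C63 is the only member preceded by another cytosine, C62. C15 and C67 share the core TCGA.

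Whole-body genomic DNA of adults, both sexes mixed and 3 days past hatching, was used from strain w1118 (wild type) or w1118; Dnmt2 mutant/Dnmt2 mutant. Each genotype was taken at 4 stages, with 1 library per genotype and stage. These were standard culture, heat shock (37 °C for 1 h, then 5 h at room temperature), and recovery for 1 day or 3 days after the same heat shock. The sources used here give neither the nature of the mutant allele nor the number of flies per library, and the amplicon holds no part of Dnmt2, so the reads do not check the genotype labels.

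Each library held 1505 to 2670 reads, 16435 in all, and the read names were all distinct. The libraries were divided here into 2 sets by the numbers the authors gave them, the 4 lower and the 4 higher. The sets so made differed in the share of reads with the substitution C102G (reference base, position, base read). This share was 5.55% ± 0.250 (SD, n = 4) in one set and 2.38% ± 0.104 (SD, n = 4) in the other, with no value between. In the first set were mutant standard, mutant 1 day recovery, wild type heat shock and wild type 3 days recovery. In the second were mutant heat shock, mutant 3 days recovery, wild type standard and wild type 1 day recovery. Each set thus holds 2 libraries of each genotype, but at every stage the 2 genotypes lie in different sets, so at a single stage genotype and set cannot be told apart. The same holds within each genotype for heat shock and for 3 days of recovery against standard culture, while 1 day of recovery shares its set with standard culture. Whether the crossing of sets and genotypes reflects exchanged labels was not tested, so each genotype value is a value of the libraries so labelled.

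Summed over sites, the 8 CpG cytosines were read as C in 1.62% ± 0.181 of their C and T calls (SD over the 8 libraries), which is 2102 of 130302 calls. In wild type libraries this CpG level was 1.48% at standard culture (312 of 21123 calls, 95% Wilson interval 1.32% to 1.65%). It was 1.80% after heat shock (266 of 14815, 1.59% to 2.02%), 1.75% at 1 day (326 of 18589, 1.57% to 1.95%) and 1.54% at 3 days of recovery (197 of 12787, 1.34% to 1.77%). The wild type values thus stayed within a narrow band, with heat shock and 1 day at its upper end. In Dnmt2 mutant libraries the CpG level was 1.66% at standard culture (199 of 11953, 1.45% to 1.91%) and 1.41% after heat shock (230 of 16338, 1.24% to 1.60%). It was 1.89% at 1 day (314 of 16656, 1.69% to 2.10%) and 1.43% at 3 days (258 of 18041, 1.27% to 1.61%). The mutant libraries held both the lowest and the highest of the 8 values, and the genotypes overlapped throughout. These intervals and all others here cover counting error only, because the reads are PCR copies without molecular identifiers.

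The mutant mean was 1.60% ± 0.225 and the wild type mean 1.64% ± 0.157 (SD, n = 4 each). The difference, mutant minus wild type, was -0.0447 ± 0.263 percentage points (SD over 4 stages; two-sided exact sign-flip permutation test, p = 0.875). It was 0.188 at standard culture, -0.388 after heat shock, 0.131 at 1 day and -0.111 at 3 days. The mutant was thus lower at 2 stages and higher at 2, and at every stage the higher library was that of the first set. With 4 stages this exact permutation test cannot go below p = 0.13. Restricted to the first library set, the mutant stood 0.107 percentage points higher; restricted to the second, it gave -0.196. The mean of both had p = 0.778 in an exact permutation test over the 36 arrangements of genotype within sets. Stage means over the 2 genotypes were 1.57% at standard culture, 1.60% after heat shock, 1.82% at 1 day and 1.49% at 3 days. That spread was not beyond what exact permutation of stages within genotypes gave (p = 0.5, smallest possible 0.0417). The mean was 1.72% ± 0.151 in the first library set and 1.52% ± 0.160 in the second (SD, n = 4 each). The second minus the first was -0.204 (exact permutation test not paired by stage, p = 0.114). For 7 of the 8 cytosines, all but C1, the mean was lower in the second set, and none of the 8 separated the sets without overlap. The part of the sets in the values that follow was not tested beyond this.

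The 19 other cytosines were retained at 1.69% ± 0.133 (SD, n = 8). The CpG level minus theirs was -0.0722 ± 0.145 percentage points (exact sign-flip permutation test over 8 libraries, p = 0.203), and the CpG level was the higher one in 2 of 8 libraries, mutant standard and mutant 1 day recovery. Both lie in the first library set. Whether the CpG margin differed between genotypes was tested directly, and the mutant minus wild type difference of the margin was 0.144 ± 0.158 percentage points (exact permutation p = 0.25). As a background, reference thymines followed by G were read as C in 0.179% ± 0.0315 of calls (SD, n = 8). The CpG level was 7.78 to 11.8 times that background, depending on the library. This background counts T read as C and does not measure cytosines that escaped conversion.

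**Figure D1:**
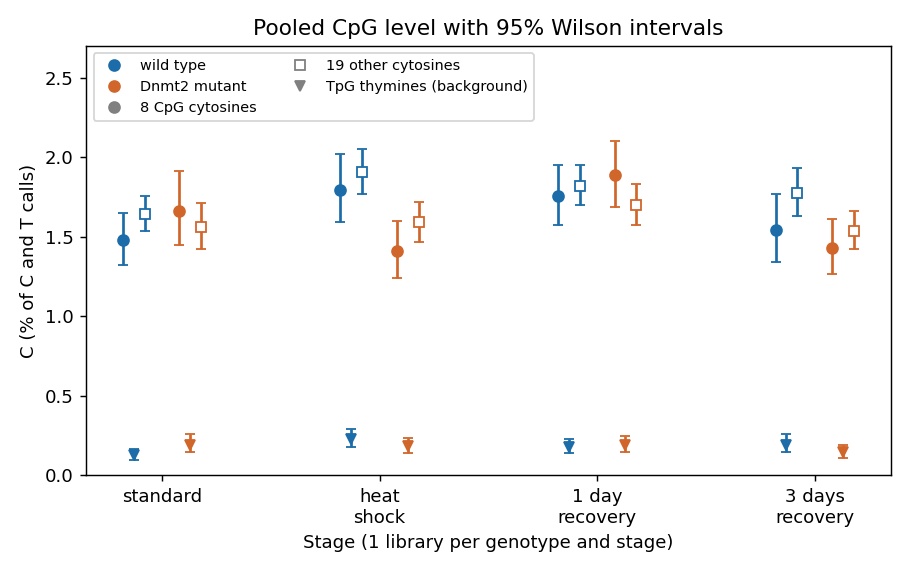
Share of calls read as C (y axis, % of C and T calls) at the CpG cytosines (filled circles), the other cytosines (open squares) and reference thymines before G (triangles), by stage (x axis) and genotype (colour), 1 library each, with 95% Wilson intervals. CpG levels lie between 1.41% and 1.89% in both genotypes, beside the other cytosines and far above the thymine background. That background does not measure cytosines that escaped conversion.

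Among the members, C114 stood apart from the other 7. In wild type it was read as C in 2.79% of calls at standard culture, 3.11% after heat shock, 2.69% at 1 day and 2.72% at 3 days of recovery. In the mutant the values were 2.63%, 2.73%, 2.98% and 2.17% at the same stages. C114 was the highest CpG in all 8 libraries and ranked 1 to 3 among the 27 cytosines. It gave 436 of the 2102 retained CpG calls, 20.7%, against an equal share of 12.5%. Its mean of 2.73% ± 0.276 exceeded that of C19, the next in order, by 1.00 ± 0.486 percentage points (SD, n = 8; exact sign-flip permutation test p = 0.00781, the smallest 8 libraries can give; Benjamini-Hochberg adjusted p = 0.0313 over 28 pairs).

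The remaining order by mean was C19 at 1.73% ± 0.464, C15 at 1.58% ± 0.563, C67 at 1.52% ± 0.256 and C35 at 1.51% ± 0.425. C24 followed at 1.32% ± 0.249, then C1 at 1.30% ± 0.280 and C63 at 1.29% ± 0.401 (SD, n = 8 each). No neighbours in this part of the order differed beyond their spread (adjusted exact permutation p from 0.255 to 0.938). Of the 28 pairs of CpG cytosines, 7 passed the test, and these were the 7 pairs that include C114. Every member but C114 was below 3% in each library, and the lowest single value was 0.660% at C63 in the mutant at 3 days. Without C114 the mean over the other 7 was 1.46% ± 0.184, which lay below the 19 other cytosines in 7 of 8 libraries; this value is a description, since C114 was set aside after its level was seen.

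**Figure D2:**
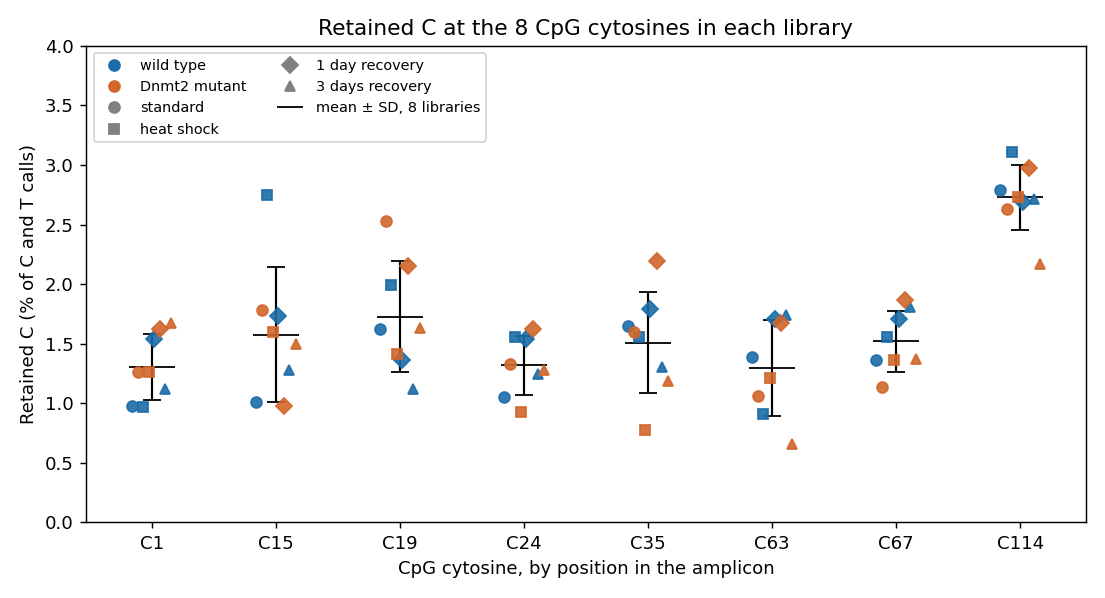
Retained C (y axis, % of C and T calls) at each CpG cytosine (x axis), with 1 point per library coloured by genotype and shaped by stage, and the mean ± SD over 8 libraries in black. C114 lies between 2.17% and 3.11% in the 8 libraries, and C15 reaches 2.75% only in wild type heat shock.

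Cytosines a few bases away that are not in CpG set these levels in context. C112, in the same stretch as C114, was retained at 2.64% ± 0.329, and C114 exceeded it in 5 of 8 libraries by 0.0856 ± 0.266 percentage points (exact permutation p = 0.406). C116, on the other side, was retained at 1.59% ± 0.315, below C114 in 8 of 8 libraries by 1.14 ± 0.309 (exact permutation p = 0.00781, adjusted p = 0.0195 over 5 such comparisons). The high level at C114 was thus shared with one near cytosine outside CpG and not with the other. Of the cytosines farther along, none in CpG, C117 averaged 2.11% and C130 2.28%, while C129 averaged 1.58%. These were not tested against C114. C35 was lower than C33 in 8 of 8 libraries (1.51% against 1.92%, difference -0.414 ± 0.386, adjusted exact permutation p = 0.0195). C19 exceeded C21 in 6 of 8 libraries by 0.432 ± 0.527 (adjusted exact permutation p = 0.104). C63 exceeded C62, the cytosine directly before it, in 6 of 8 by 0.192 ± 0.391 (adjusted exact permutation p = 0.264).

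By the base that follows the CpG, the 4 members followed by A (C15, C35, C63 and C67) averaged 1.47% ± 0.215. The 2 followed by G (C1 and C24) averaged 1.31% ± 0.218, and the 2 followed by C (C19 and C114) 2.22% ± 0.296 (SD, n = 8). The last value carries C114. C15 and C67, the 2 members with the core TCGA, averaged 1.55% ± 0.283, close to the level over all 8. With so few members per base, no test was made.

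C15 varied most between libraries. In wild type it was read as C in 1.01% of calls at standard culture (26 of 2585), 2.75% after heat shock (50 of 1820), 1.73% at 1 day (39 of 2257) and 1.28% at 3 days of recovery (20 of 1562). In the mutant it was read as C in 1.78% at standard culture (26 of 1461), 1.60% after heat shock (32 of 1998), 0.973% at 1 day (20 of 2055) and 1.49% at 3 days (33 of 2208). Wild type heat shock was the highest of the 8 by about 1 percentage point, and mutant 1 day and wild type standard were the lowest. The SD of C15 over the libraries was 2.01 times the counting error, and the differences between libraries passed a chi-square test with 7 degrees of freedom (p = 0.000177, adjusted p = 0.00479 over 27 cytosines). C15 was the only one of the 27 cytosines to pass, which is 3.7% of those tested. Unadjusted, C19, C35 and C63 also fell under 0.05, so that 4 of the 8 CpG cytosines did so against 6 of all 27. The median ratio of SD to counting error was 1.32 over the CpG cytosines and 1.11 over all 27. C114, the highest member, varied least, with a ratio of 0.748.

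Single cytosines were compared between libraries with Fisher's exact test on the reads, adjusted by Benjamini-Hochberg over the 27 cytosines of each comparison. With 1 library per group, these tests compare libraries, not conditions. Between genotypes, 0 of 32 tests at CpG cytosines passed at an adjusted p of 0.05, and 6 had an unadjusted p under 0.05, against 7 of 76 at the other cytosines. Over all 27 cytosines 0% passed at standard culture, heat shock and 3 days, and 3.7% at 1 day. The lowest adjusted p was at C63 at 3 days of recovery, with 28 of 1610 calls read as C in wild type (1.74%) and 15 of 2273 in the mutant (0.660%; Fisher's exact test, adjusted p = 0.0715). The other 5 with an unadjusted p under 0.05 were C15 at standard culture, heat shock and 1 day, C19 at standard culture and C35 after heat shock. Their directions were mixed: C15 and C19 were higher in the mutant at standard culture, and C15 and C35 were lower in it after heat shock.

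Between stages, 1 of 48 tests at CpG cytosines passed and 5 had an unadjusted p under 0.05, against 9 of 162 over all 27 cytosines. C15 was higher in the wild type heat shock library, at 2.75%, than in the wild type standard library, at 1.01%, a difference of 1.74 percentage points (Fisher's exact test, adjusted p = 0.000462). The call was lost when reads with the same calls at every cytosine were counted as 1 (Fisher's exact test, adjusted p = 0.177). The difference was then 4.72 percentage points, with 344 call patterns left in wild type heat shock and 377 in wild type standard. That counting merges reads with the same calls, whether or not they are PCR copies, and raises the weight of reads with a retained C. With all reads, C15 was the single call among the 27 cytosines in this comparison of wild type heat shock with standard, 3.7%. In the other 5 comparisons with standard culture 0% passed. The 2 libraries lie in different library sets, and the part of the sets in this difference was not tested. The 50 reads with C at C15 in wild type heat shock held 33 distinct sequences, the commonest in 10 reads. The 26 reads at standard culture held 20 distinct sequences, the commonest in 6. At C15 a further 2.90% of reads on average, and 3.91% at most, carried A and gave no call. In the mutant the same comparison gave -0.178 percentage points. The change in the mutant minus that in wild type was -1.92 percentage points (likelihood-ratio chi-square test of the interaction in a logistic model of the read counts, p = 0.00177, adjusted p = 0.0478 over 27 cytosines). This compares 4 single libraries. From standard to heat shock the library set changes in opposite directions in the 2 genotypes, so genotype and set cannot be told apart in this interaction. The call was lost under 3 of 4 alternatives by the same chi-square test, with an adjusted p of 0.55 under that counting, 0.0589 in reads with 80% of cytosines called and 0.0626 with G as the next base. At 1 day of recovery both libraries of a genotype share their set, the first for the mutant and the second for wild type. Genotype and set thus cannot be told apart at 1 day either. There the same interaction was -1.53 percentage points (same chi-square test, adjusted p = 0.0795). At 3 days of recovery, where the sets change as they do for heat shock, it was -0.56 percentage points (same chi-square test, adjusted p = 0.793).

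C1 was the only member with the mutant higher at all 4 stages. It is the first base of the deposited sequence, and whether that base lies in a PCR primer is not stated in the labels; a base from a primer would not report on fly DNA. It was read as C in wild type in 0.977% of calls at standard culture, 0.970% after heat shock, 1.54% at 1 day and 1.12% at 3 days, and in the mutant in 1.26%, 1.27%, 1.63% and 1.67%. The ranges of the genotypes overlapped, because wild type at 1 day exceeded 2 of the mutant values. The difference was 0.306 ± 0.191 percentage points (SD, n = 4; exact permutation p = 0.13, the smallest possible; adjusted p = 0.563 over 27 cytosines). C15, C24, C35, C63, C67 and C114 had a lower mean in the mutant and C1 and C19 a higher one, and no adjusted exact permutation p was under 0.563. Counted by stage, 4 of the 8 were lower in the mutant at standard culture, 6 after heat shock, 2 at 1 day and 4 at 3 days. Of the 19 other cytosines, 11, 17, 12 and 12 were lower at the same stages.

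Against standard culture of the same genotype, 5 of the 8 CpG cytosines were higher after heat shock in wild type and 4 in the mutant, and 3 had the same sign in both. At 1 day of recovery 6 were higher in each genotype and 6 had the same sign. C1, C24, C35, C63 and C67 were the members higher at 1 day in both, by 0.138 to 0.562 percentage points in wild type and by 0.298 to 0.730 in the mutant; none passed the test. At 3 days 5 were higher in wild type and 2 in the mutant. C67 was the only member above its standard value in all 6 comparisons, at 1.36% at standard culture and 1.56%, 1.71% and 1.81% after it in wild type. In the mutant C67 was 1.14% at standard culture and 1.37%, 1.87% and 1.37% after it. Its 8 values nevertheless spread no more than counting error gives, with a ratio of 0.930.

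**Figure D3:**
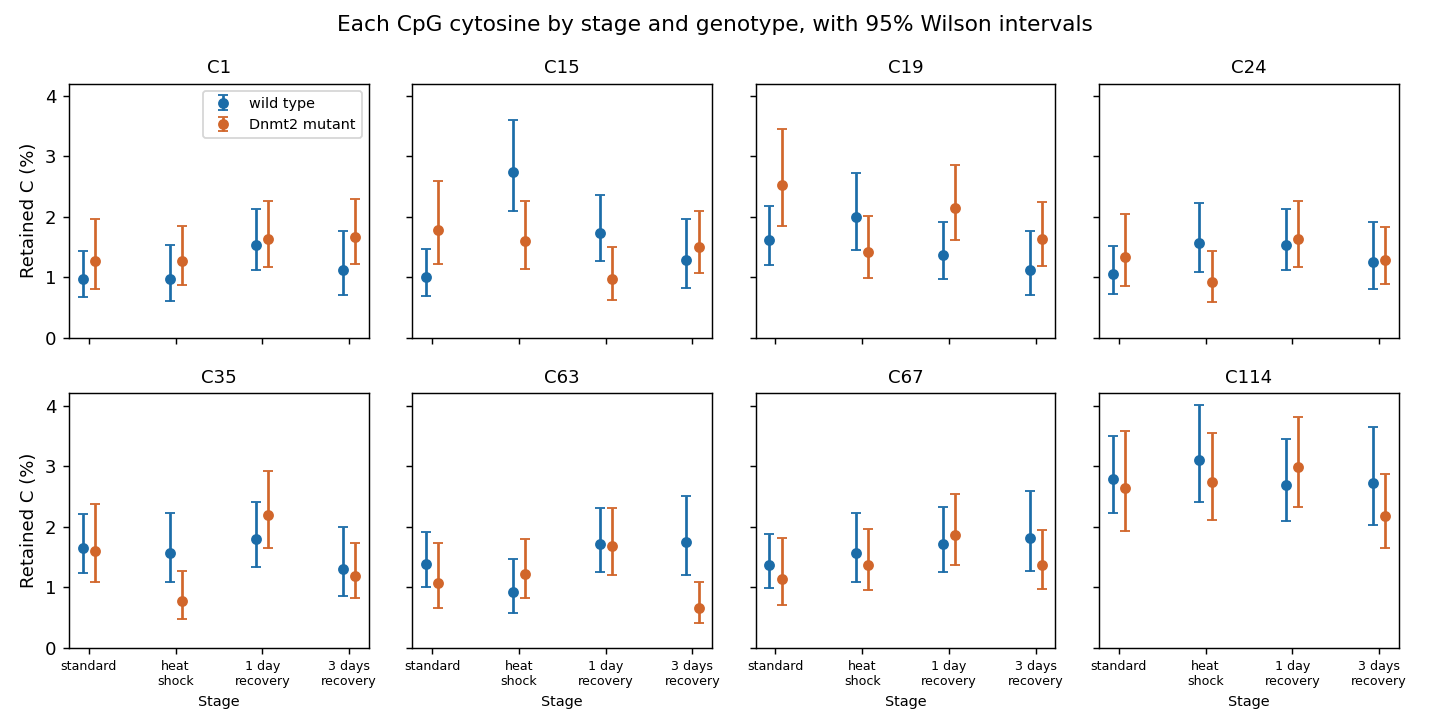
Retained C (y axis, % of C and T calls) by stage (x axis) for each CpG cytosine in its own panel, wild type and Dnmt2 mutant in separate colours, with 95% Wilson intervals. The intervals of the 2 genotypes overlap at every stage except C63 at 3 days of recovery. C15 in wild type heat shock, at 2.75%, departs most from standard culture of the same genotype, at 1.01%.

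In some LTR reads the base after a CpG cytosine was A and not G. Such calls were 0.0721% to 0.147% of CpG calls per library, 153 in all. Of these 153, 1 was read as C, which is 0.654% (95% Wilson interval 0.115% to 3.61%), and it lay at C1 in wild type 3 days recovery. Where the next base was G, 2085 of 129508 calls were C, 1.61% (1.54% to 1.68%). The difference per library was 0.920 ± 2.01 percentage points (SD, n = 8), with the G calls higher in 7 of 8 libraries. Each library had only 11 to 25 calls with A, and in those 7 none was C, so counts of 0 fix the direction there and no test is read from it. The interval for the A calls includes the level of the G calls.

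Calls were lost unevenly over the members. At C114 a gap took 1.39% to 3.49% of reads, and at C67 at most 0.562%. At C15 the loss was to A, as given above. At the other 5 members fewer than 0.5% of reads in any library held each of a gap, A, G or an undetermined base.

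Most reads held no retained CpG cytosine, and those that did usually held 1. Of the 15337 reads with all 8 called, 13444 (87.7%) had none, 1779 (11.6%) had 1, 110 (0.717%) had 2, 3 had 3, and 1 had all 8. If the 8 cytosines of a read were retained independently at each library's levels, 105 reads with 2 and 3.47 with 3 would be found. Reads with 2 or more numbered 10 to 17 per library against 9.96 to 18.7 expected, and their total was 1.05 times the expected total (exact sign-flip permutation test of the difference over 8 libraries, p = 0.563). None of the 15337 reads had 4 to 7, which allows a share of up to 0.0196%. The share of reads with at least 1 was 12.8% ± 1.16 in wild type and 11.9% ± 1.83 in the mutant (SD, n = 4 each; difference -0.838 ± 1.92 percentage points, exact permutation p = 0.5). The reads showed 37 distinct CpG patterns, 24 of them with exactly 2 retained. Reads with 2 or more retained CpG cytosines, 116 when incomplete reads are included, held 106 distinct sequences.

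Over the 7 neighbouring pairs and 8 libraries, 36 pairs of neighbouring CpG cytosines were C in the same read, against 27.9 expected from the levels of each cytosine, a ratio of 1.29. Per library the count was 1 to 10, against 2.60 to 4.82 expected. The excess was 0.597 ± 2.35 per 10000 pairs called in a read (SD, n = 8; exact sign-flip permutation test, p = 0.547). The mutant heat shock library had the highest count, 10, and 7 of these came from 1 read in which all 27 of 27 cytosines were C. Without that read the 8 libraries gave 29 pairs against 27.7 expected, a ratio of 1.05, and the excess was -0.0039 per 10000 (exact permutation p = 0.984).

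Single neighbouring pairs rested on few reads. C24 and C35, 11 bases apart, were both C in 9 reads against 3.36 expected (ratio 2.68, exact 95% Poisson interval 1.23 to 5.09). C1 and C15, 14 bases apart, were both C in 8 against 3.18 (ratio 2.52, 1.09 to 4.96). C15 and C19, 4 bases apart, were both C in 1 read against 4.19 (ratio 0.239, 0.00604 to 1.33), and that was the lowest ratio of the 28 pairs; the 1 read was the one with C at every cytosine. C19 with C24, C35 with C63, C63 with C67 and C67 with C114 had ratios between 0.906 and 1.19. The 3 pairs only 4 or 5 bases apart gave 8 reads against 11.2 expected (ratio 0.712, 0.307 to 1.40), so the closest members were not the ones most often retained together. These counts include the read with C at every cytosine, which adds 1 to each pair. Without it C24 with C35 stood at 8 against 3.34 (ratio 2.39, 1.03 to 4.72) and C1 with C15 at 7 against 3.15 (ratio 2.22, 0.893 to 4.58). C15 and C19 were then never both C, against 4.16 expected, and the interval for their ratio ended at 0.887. The 3 closest pairs gave 5 reads against 11.2, a ratio of 0.448 for which no interval was computed.

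Over all 28 pairs of CpG cytosines 149 co-retained pairs were seen against 118 expected, a ratio of 1.26. That read supplied 28 of them, and without it there were 121 against 117, a ratio of 1.03. In wild type the ratios were 1.07 at standard culture, 0.676 after heat shock, 0.806 at 1 day and 0.952 at 3 days, and in the mutant 1.59, 3.77, 0.830 and 1.42. Without that read the mutant heat shock library stood at 14 pairs against 10.4 expected, a ratio of 1.35 in place of 3.77. The mutant was higher at 4 of 4 stages, by 1.03 ± 1.40 on average, or 0.423 without the read (exact permutation p = 0.13 in both cases, the smallest possible). Of the 28 pairs, 19 had a ratio above 1, with a median of 1.11. For 3 the interval lay above 1 (C1 with C15, C24 with C35, and C24 with C114 at 13 reads against 5.82), and for none below. Without the read 11 of the 28 had a ratio above 1, with a median of 0.894. The interval then lay above 1 for 2 pairs, C24 with C35 and C24 with C114 (12 against 5.79), and below 1 for C15 with C19. With 28 intervals at 95%, no adjustment for their number was made.

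**Figure D4:**
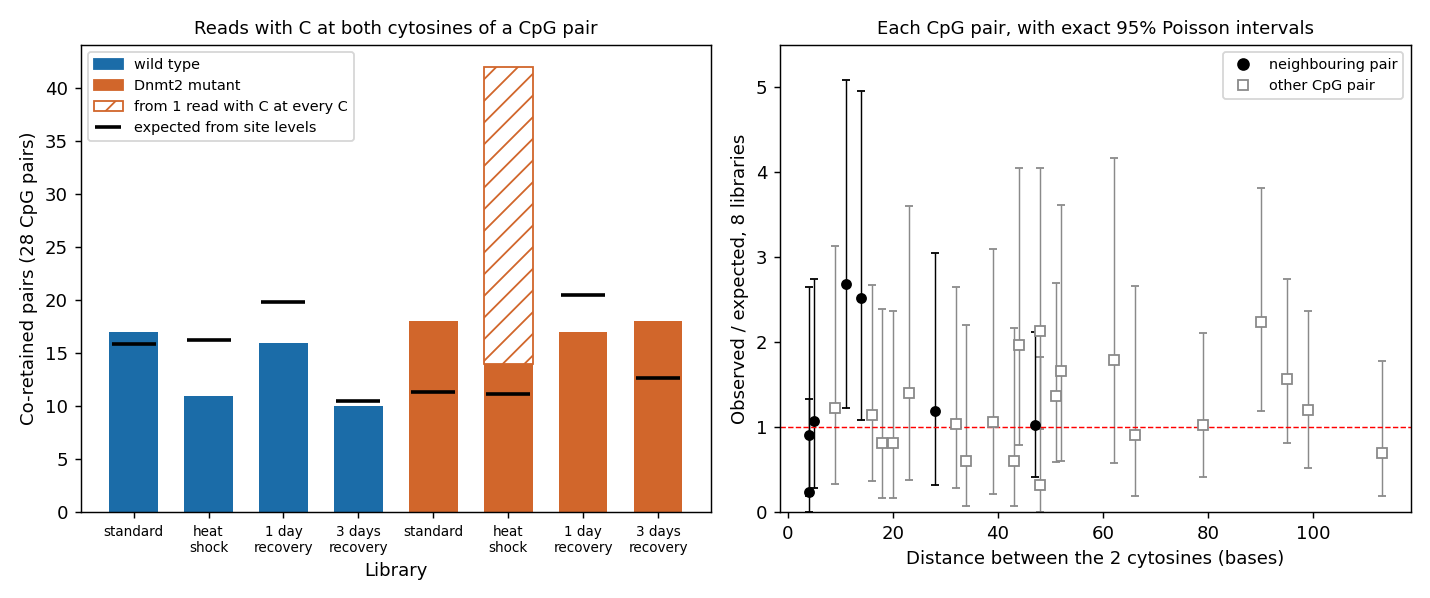
Left, number of co-retained CpG pairs per library (y axis; bars, wild type then mutant), with the number expected from the cytosines' levels as black lines and the pairs of 1 read with C at every cytosine hatched. Right, observed over expected (y axis) for each of the 28 CpG pairs by distance in bases (x axis), all libraries summed, with exact 95% Poisson intervals. Apart from the hatched 28 pairs the bars lie on both sides of the lines, from 0.676 times in wild type heat shock to 1.59 times in mutant standard. Most intervals at right include 1.

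Among cytosines outside CpG, 1060 co-retained pairs were seen against 772 expected, a ratio of 1.37. Their excess was 1.10 ± 1.60 per 10000 (exact sign-flip permutation p = 0.0156), higher than expected in 7 of 8 libraries, and 0.48 without that read (p = 0.0312). With identical call patterns counted once it was -3.72 (exact permutation p = 0.383). That counting merges reads with the same calls, so the expected number under it is no longer that of independent retention. The CpG ratio minus the ratio of these pairs was -0.0176 ± 0.453 (exact permutation p = 0.906), and the CpG ratio was the higher in 4 of 8 libraries. Without the read with C at every cytosine the difference was -0.0783 (exact permutation p = 0.516). No difference between CpG pairs and the rest was thus seen beyond the spread. Reads with a retained CpG cytosine also held a retained cytosine outside CpG in 27.5% ± 5.59 of cases, against 26.1% ± 1.58 of reads with none (SD, n = 8). The difference was 1.44 ± 5.12 percentage points (exact permutation p = 0.5), positive in 5 of 8 libraries. It was lowest in mutant 3 days recovery, at 17.4% against 24.7%, and highest in wild type 3 days recovery, at 35.8% against 25.6%.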

How the data were processed

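Per the labels' protocols, 5 µg of DNA went through the EpiTect Bisulfite Kit, and 200 ng was amplified in 35 cycles. From the gel-purified product, 50 ng was re-amplified in 15 cycles with adapters for 454 sequencing. After alignment to the LTR sequence the authors deposited, per library, the aligned reads, a matrix with 1 score per read and cytosine (0 for C, 1 for T, NA for anything else) and the percent of C per cytosine. Neither the aligner nor the read filters nor the genomic position of the LTR copies is given in the sources used here. Recomputed from the aligned bases, the deposited scores showed 0 differences and the deposited percent values differed by no more than rounding.

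Levels are C calls over C and T calls, with a minimum of 50 calls per cytosine and 95% Wilson intervals. Pooled levels sum calls over cytosines. Genotypes were compared over the 4 stages, and classes and cytosines over the 8 libraries, with two-sided exact sign-flip permutation tests. Single cytosines were compared with Fisher's exact test on reads, and changes between genotypes with a logistic model; both were adjusted over 27 cytosines at a threshold of 0.05. Expected co-retention multiplied the 2 cytosines' levels within each library over the reads that called both. The p-values over libraries measure the spread between these libraries, which may be technical. The members are named by the reference rule, so all 8 are described. Cytosines outside CpG are named where they lie within 2 bases of a member or beyond C114. Although the reference alone fixes its 8 members, the CpG class, the tests and the comparisons were chosen with earlier results of these data known. The functions were tested on simulated data. Python 3.11.15, numpy 2.4.6, scipy 1.17.1, statsmodels 0.14.6 and matplotlib 3.10.9 were used. Alternatives varied the reads, coverage, weighting, background, libraries and library sets.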

Additional observations from a re-analysis of the deposited data

Results flagged for a closer look

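At C15 the change from the standard to the heat shock library differed between the libraries labelled wild type and those labelled mutant. In wild type the level was 1.74 percentage points higher after heat shock, and in the mutant the change was -0.178. The mutant change minus the wild type change was -1.92 percentage points (likelihood-ratio chi-square test on read counts, adjusted p = 0.0478 over 27 cytosines). The adjusted p was 0.55 with identical call patterns counted once, 0.0589 in reads with 80% of cytosines called and 0.0626 with G as the next base, by the same chi-square test. Each of the 4 values comes from 1 library, so the test compares libraries and not genotypes. In both genotypes the standard and heat shock libraries lie in different library sets, so the sets and the stages cannot be told apart. The set changes in opposite directions in the 2 genotypes, so the difference between the 2 changes cannot be told apart from the sets either. At 1 day of recovery each genotype stays in its set, the mutant in the first and wild type in the second, so genotype and set still coincide. The interaction there was -1.53 percentage points (same chi-square test, adjusted p = 0.0795). At 3 days of recovery, where the sets change as they do for heat shock, it was -0.56 percentage points (same chi-square test, adjusted p = 0.793). The 18 groups of 4 libraries checked for a single value far from the rest gave 0.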

How the results depend on the processing

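Of 133 values recomputed under other settings, 104 kept their direction and side of the threshold, or stayed within the spread. The mutant minus wild type difference turned positive with identical call patterns counted once (0.303), with heat shock left out (0.0696) and within the first library set (0.107). With identical patterns counted once, 0 CpG cytosines passed between stages, C15 in wild type heat shock had a difference of 4.72 with an adjusted p of 0.177 (Fisher's exact test), and its genotype interaction had one of 0.55. That interaction had an adjusted p of 0.0589 in reads with 80% of cytosines called, 0.0626 with G as the next base, and 0.0367 without reads over 20% C. The neighbouring excess was -3.77 per 10000 with patterns counted once and -0.0039 without reads over 20% C. Leaving out 1 library at a time gave -0.0625 to 0.96, negative only without mutant heat shock. The excess of pairs outside CpG was -3.72 with patterns counted once. CpG against other pairs gave -0.14 to 0.0505 without 1 library each, positive without wild type heat shock, 1 day or 3 days or mutant 1 day. The next-base difference was 4.79 with patterns counted once and 0.783 to 1.63 without 1 library each, the highest without wild type 3 days; counts of 0 among the A calls fix its sign, so no test is read from it. CpG minus other cytosines ranged from -0.109 to -0.0489 without 1 library each, and only without mutant 1 day did it pass (exact permutation p = 0.0469). Means of the 8 cytosines moved under patterns counted once only. The cause of these shifts was not tested. Counting patterns once keeps 260 to 401 patterns per library and raises the weight of reads with a retained C. The expected pairs under it are thus no longer those of independent retention. The alternatives on C15, single pairs, single-cytosine means and order, the ratio of the 28 pairs and pairs outside CpG were chosen after seeing the data, as were the read filters (20% C, 80% called) on called counts. Single pairs rest on 1 to 13 reads. The labels give no replicate numbers and each group holds 1 library, so libraries could not be paired by replicate. Tests between genotypes were paired by stage, and those between classes or cytosines by library.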
